A study of Mus musculus with 32 samples.

Results

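The comparison described here set the livers of 3-week-old female offspring of obese dams (MF) against those of 3-week-old female offspring of control dams (CF). It used 8 of the 32 mRNA sequencing libraries of the series, 4 per group, selected by the diet, sex and age in the sample labels. The other libraries came from males at 3 weeks (CM and MM) and from both sexes at 8 weeks. The MF dams received a Western-style diet and the CF dams chow, starting 4 weeks before mating and continuing through pregnancy and lactation. The mothers were bred to wild-type C57BL/6J males, and the pups were killed unweaned and fed. Both groups were on a C57BL/6J background and carried a floxed Reg3g allele, heterozygous or homozygous, as floxed littermates of a Reg3g colony. Exposure before birth and exposure after it, through the milk or through any of the dam's diet that the pups ate, cannot be told apart in this design. The sources used here do not say which pups shared a litter. The p-values below rest on the spread within groups over all 16 libraries of 3 weeks, males included, and litter and diet cannot be told apart.

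The liver of a suckling mouse lives on milk, which is rich in fat and poor in carbohydrate. Hepatocytes burn the fatty acids by mitochondrial and peroxisomal oxidation under the nuclear receptor PPARα, make ketone bodies, and start to synthesise fat from sugar only towards weaning. Sterol synthesis is set by the transcription factor SREBP2, which is cut and activated when membrane cholesterol is low, while the related SREBP1c drives fatty acid synthesis downstream of insulin and oxysterols. Hepatocytes also secrete hepcidin, the hormone that blocks iron export from gut and macrophages, in proportion to BMP and SMAD signalling.

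Libraries held 31550883 to 48333728 counted reads in CF and 40973501 to 46346593 in MF, and 15097 genes were tested. Values per library are in CPM, the reads of a gene scaled to its library's TMM-adjusted total, and are always given in the order of libraries 3, 4, 5 and 6 of a group. Differences between the groups are log2 fold changes of MF against CF with a standard error (SE), and a gene was called when its false discovery rate (FDR) over all tested genes was below 0.05. Libraries CF 5 and MF 4 stood apart. The 39 genes of the interferon list summed to 12055 CPM in CF 5, to 1156, 1234 and 1369.9 CPM in the other CF libraries, and to 776 to 1266 CPM in MF. The 19 measured brain markers summed to 562 CPM in MF 4 and to 22.1 to 53.5 CPM in the other 7 libraries. In a principal component analysis of the 8 libraries, the first component held 50.5% of the variance and placed MF 4 at 100.1, against -42.3 to 14.2 for the other 7. Hepatocyte markers summed to 159537 to 183798 CPM in CF and 136813 to 157294 CPM in MF without overlap, and 2 of the 10 fell (20%, against 7.49% of all genes). Every count that leads a paragraph below was therefore also computed without CF 5 and MF 4.

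**Figure D1:**
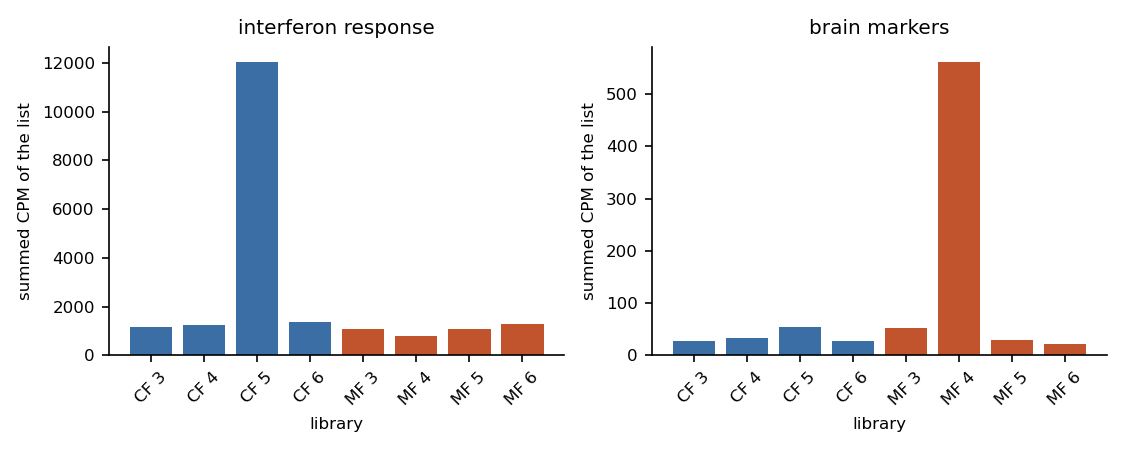
Summed CPM (vertical axis) of the 39 interferon response genes (left) and the 19 measured brain markers (right) in each of the 4 CF (blue) and 4 MF (orange) libraries (horizontal axis). CF 5 reached 12055 CPM on the left and MF 4 reached 562 CPM on the right.

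Of the 15097 tested genes, 2180 (14.4%) passed the test, of which 1049 (6.95%) had more transcript in MF and 1131 (7.49%) had less. The median log2 fold change of all tested genes was -0.000625. At least 2-fold changes were seen for 487 of them, 275 higher and 212 lower, and 1157 changed by less than 1.5-fold. The MF libraries did not overlap the CF libraries in 1918 of the called genes. Over all tested genes, 10.4% had each MF library above each CF library and 10.8% had each below. The fit without CF 5 and MF 4 called 1137 genes, 519 higher and 618 lower, of which 1064 were among the 2180. The count also fell by more than 1.5 times without CF 3 (1088 genes), CF 4 (1131), MF 5 (1288) or MF 6 (1336). Scaling by total count alone gave 64.9% of calls as higher instead of 48.1%, and it moved the median of all genes to a log2 fold change of 0.05. In bulk tissue, fewer cells of a type and less RNA per cell cannot be told apart.

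**Figure D2:**
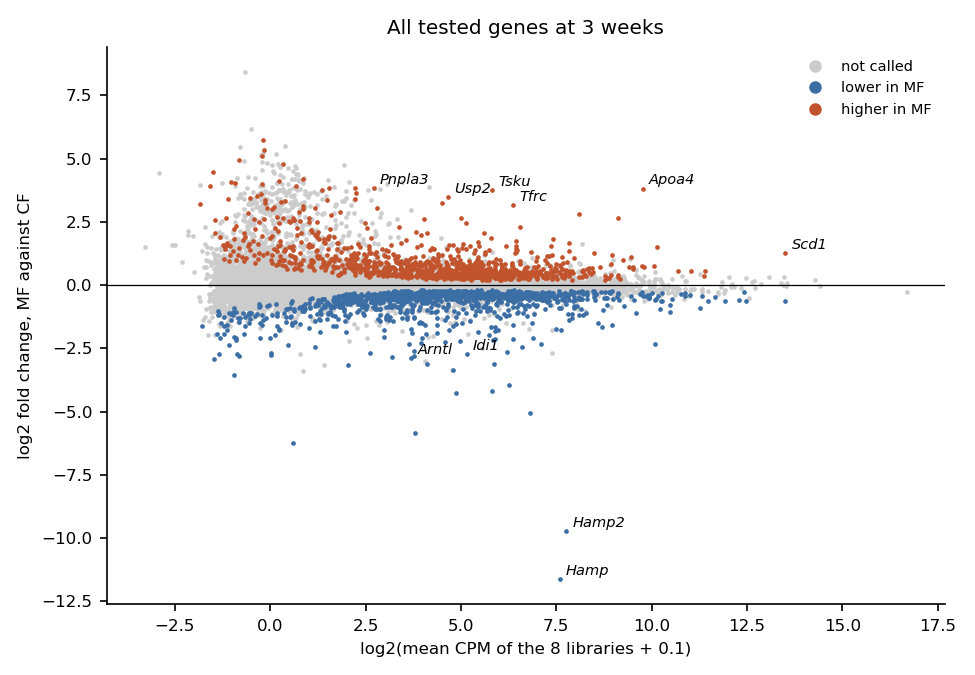
Log2 fold change of MF against CF (vertical axis) against log2 of the mean CPM of the 8 libraries plus 0.1 (horizontal axis) for the 15097 tested genes, with called genes in orange (1049 higher) and blue (1131 lower). *Hamp* and *Hamp2* lay far below all other called genes at log2 fold changes of -11.61 and -9.71.

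Hepcidin transcripts were nearly absent from MF livers. *Hamp*, which encodes hepcidin, was at 516, 479, 257 and 287 CPM in CF and 0.328, 0.0958, 0.0430 and 0 CPM in MF (log2 fold change -11.61 ± 0.84 SE, FDR 6.21e-06). The MF values correspond to 15, 4, 2 and 0 reads, against 9804 to 19123 reads in CF. Its neighbour *Hamp2*, a close copy, was at 608, 423, 319.7 and 371 CPM in CF and 1.01, 0.144, 0.0644 and 0.831 CPM in MF (log2 fold change -9.71 ± 0.75 SE, FDR 6.21e-06), which was 46, 6, 3 and 34 reads in MF. No MF library came near any CF library for either gene, and without MF 3 the log2 fold changes were -12.92 and -10.31. Since reads mapping to several places had been discarded, the split of reads between these copies is uncertain.

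The promoters of both genes are shown because they lost their transcripts together, from 250 bases before to 50 bases after the RefSeq start (GRCm38.p6, the build of the authors' mm10 alignment), 5′ to 3′. Capitals mark the letters GGCGCC, a core of BMP response elements, searched on both strands. These letters occurred in the window of *Hamp*, 109 bases before the start, and not in that of *Hamp2*, and in the windows of 20.8% of the 11231 tested genes for which a window was kept. By global alignment the windows had 276 identical positions out of 303 (91.1%).
Hamp (chr7:30943980-30944279, minus strand): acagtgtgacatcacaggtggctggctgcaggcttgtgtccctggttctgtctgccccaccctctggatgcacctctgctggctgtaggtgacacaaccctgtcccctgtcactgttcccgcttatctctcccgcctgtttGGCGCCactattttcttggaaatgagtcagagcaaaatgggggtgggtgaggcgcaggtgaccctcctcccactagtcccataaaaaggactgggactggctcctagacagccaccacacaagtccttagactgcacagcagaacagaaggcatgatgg
Hamp2 (chr7:30924132-30924431, minus strand): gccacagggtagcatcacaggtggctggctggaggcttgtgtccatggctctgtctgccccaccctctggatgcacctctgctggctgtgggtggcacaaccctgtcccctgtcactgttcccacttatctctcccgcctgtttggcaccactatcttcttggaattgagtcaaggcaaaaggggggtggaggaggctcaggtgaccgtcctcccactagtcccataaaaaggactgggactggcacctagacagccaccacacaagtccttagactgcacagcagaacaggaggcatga

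Of the 9 BMP-SMAD targets, 6 fell and 0 rose (66.7% lower, against 7.49% of all genes), with a median log2 fold change of -0.95. *Id1*, an inhibitor of helix-loop-helix factors and a classical BMP target, was at 21.5, 16.3, 13.1 and 12.6 CPM in CF and 2.19, 3.47, 1.68 and 1.37 CPM in MF (log2 fold change -2.86 ± 0.27 SE, FDR 4.76e-05). *Atoh8*, a helix-loop-helix factor that acts on the hepcidin promoter, was at 24.1, 25.0, 22.6 and 22.6 CPM in CF and 3.83, 4.10, 3.65 and 2.03 CPM in MF (log2 fold change -2.79 ± 0.35 SE, FDR 0.000377). For both genes each MF library was below each CF library. The inhibitory SMADs, which feed back on the pathway, fell less, with *Smad7* at 27.6, 18.4, 16.8 and 14.7 CPM in CF and 6.35, 10.8, 7.37 and 6.5 CPM in MF (log2 fold change -1.32 ± 0.27 SE, FDR 0.00584) and *Smad6* at a log2 fold change of -0.68, FDR 0.0321. *Id3* fell by 2.21 on the log2 scale (FDR 9.24e-05). The ligand *Bmp6*, made mainly by sinusoidal endothelium, was at 3.53, 4.11, 2.41 and 3.36 CPM in CF and 2.47, 2.06, 1.65 and 2.18 CPM in MF and was not called (log2 fold change -0.68 ± 0.26 SE, FDR 0.0898). Of the 9 genes, 5 fell without CF 5 and MF 4.

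Among iron genes, 3 importers rose. *Tfrc*, the transferrin receptor whose mRNA is stabilised in iron-poor cells, was at 16.4, 12.6, 15.1 and 22.6 CPM in CF and 106, 137, 135 and 215 CPM in MF (log2 fold change 3.15 ± 0.39 SE, FDR 0.000363). The lowest MF library held more *Tfrc* than the highest CF library. The iron importers *Slc11a2* (0.67) and *Slc39a14* (0.50) also rose. *Slc40a1*, the iron exporter that hepcidin degrades, was at 234, 241, 166 and 229.6 CPM in CF and 205, 199, 211 and 257 CPM in MF (log2 fold change 0.00 ± 0.15 SE, FDR 0.986), with overlapping groups. Among the 22 iron genes tested, 3 rose and 6 fell (13.6% higher and 27.3% lower, against 6.95% and 7.49% of all genes), and the fall of *Tfr2*, the hepatocyte sensor of iron-loaded transferrin (-0.22, FDR 0.047), was small. Of the same genes, 3 rose and 4 fell without CF 5 and MF 4. The falls numbered 2 or 3 instead of 6 without CF 3, CF 4, CF 6, MF 4, MF 5 or MF 6. In the fit of the 8 female libraries alone they numbered 2. Refitting without 1 library ended the call of *Smad6* (in 5 of 8 such fits, FDR up to 0.0975 without CF 3) and *Tfr2* (in 7 of 8 such fits, FDR up to 0.159 without CF 4).

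**Figure D3:**
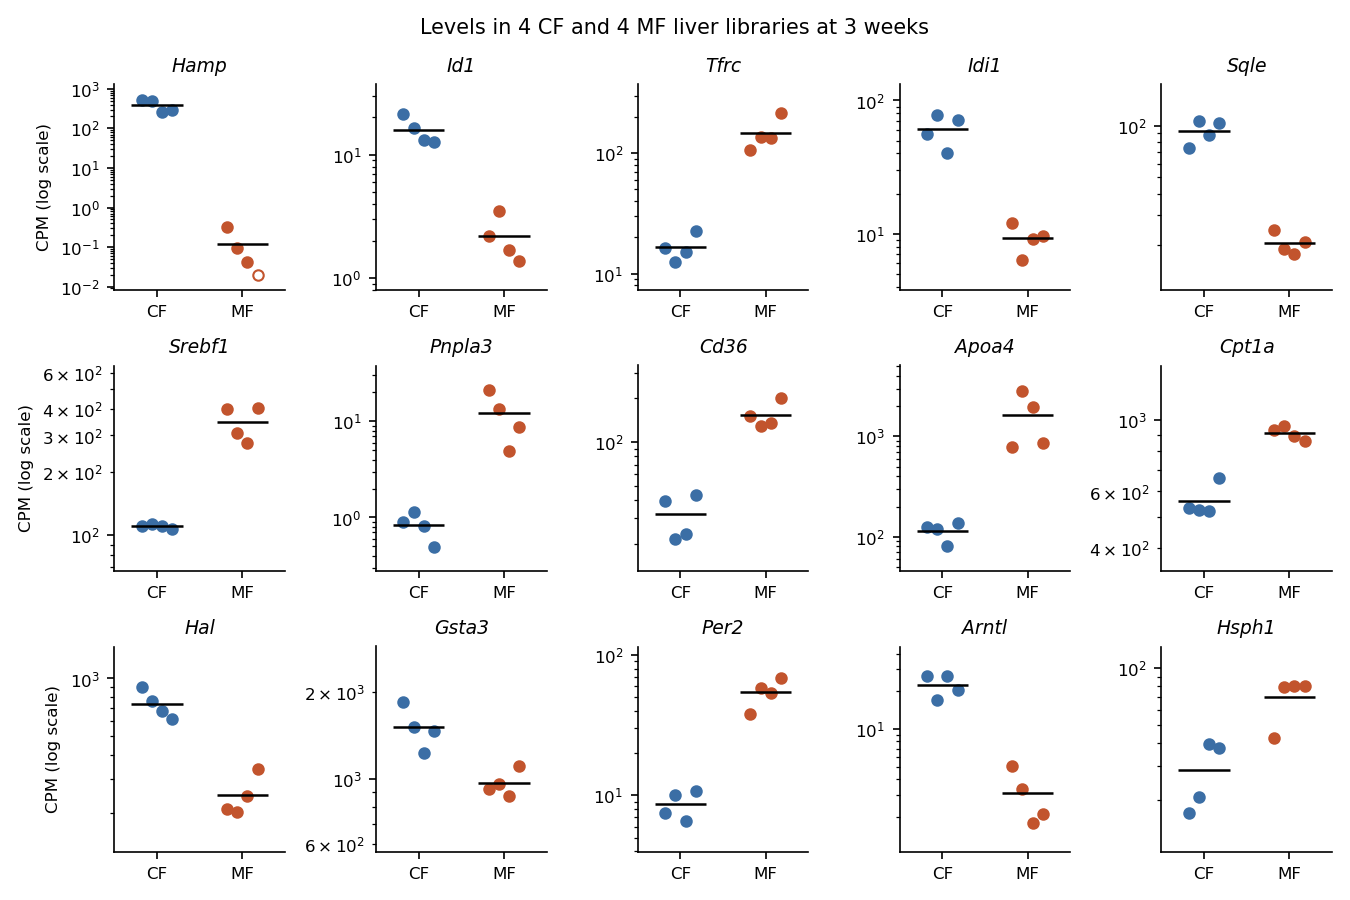
CPM on a log scale (vertical axes, a different range in each panel) of 15 genes in 4 CF (blue) and 4 MF (orange) libraries, 1 point per library and a bar at the group mean. The open *Hamp* point is MF 6, which held 0 reads and is drawn at 0.02, and in each panel the MF libraries lie wholly above or wholly below the CF libraries.

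Cholesterol synthesis fell almost along its whole length. Of its 20 enzymes, 18 fell and 0 rose (90% lower, against 7.49% of all genes), with a median log2 fold change of -1.32. The largest fall was in *Idi1*, the isomerase that makes dimethylallyl diphosphate, at 56.3, 77.6, 40.7 and 71.8 CPM in CF and 12.0, 6.37, 9.08 and 9.61 CPM in MF (log2 fold change -2.73 ± 0.23 SE, FDR 1.17e-05). *Cyp51*, which removes a methyl group from lanosterol, was at 202, 289.7, 174 and 243 CPM in CF and 58.0, 37.8, 44.5 and 38.1 CPM in MF (log2 fold change -2.35 ± 0.18 SE, FDR 6.21e-06). *Sqle*, the epoxidase that commits squalene to sterols, was at 73.6, 106, 87.9 and 104 CPM in CF and 24.6, 19.1, 17.9 and 20.8 CPM in MF (log2 fold change -2.17 ± 0.17 SE, FDR 6.21e-06). The groups did not overlap for any of these 3 enzymes. *Fdps*, which makes farnesyl diphosphate, *Msmo1*, a sterol methyl oxidase, and *Mvk*, mevalonate kinase, fell by 2.11, 2.09 and 1.73 on the log2 scale. *Hmgcs1*, which makes HMG-CoA, was at 637, 765, 399.8 and 698 CPM in CF and 293, 153, 165 and 189 CPM in MF (log2 fold change -1.64 ± 0.29 SE, FDR 0.00311), and *Fdft1*, squalene synthase, and *Lss*, lanosterol synthase, fell by 1.13 and 1.04 on the log2 scale.

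*Sc5d*, a sterol desaturase, was not called (-0.35, FDR 0.211). Without CF 5 and MF 4, 18 of 20 enzymes fell, and with any 1 library left out at least 17 did. All calls named for this pathway held when any 1 of the 8 libraries was left out.

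**Figure D4:**
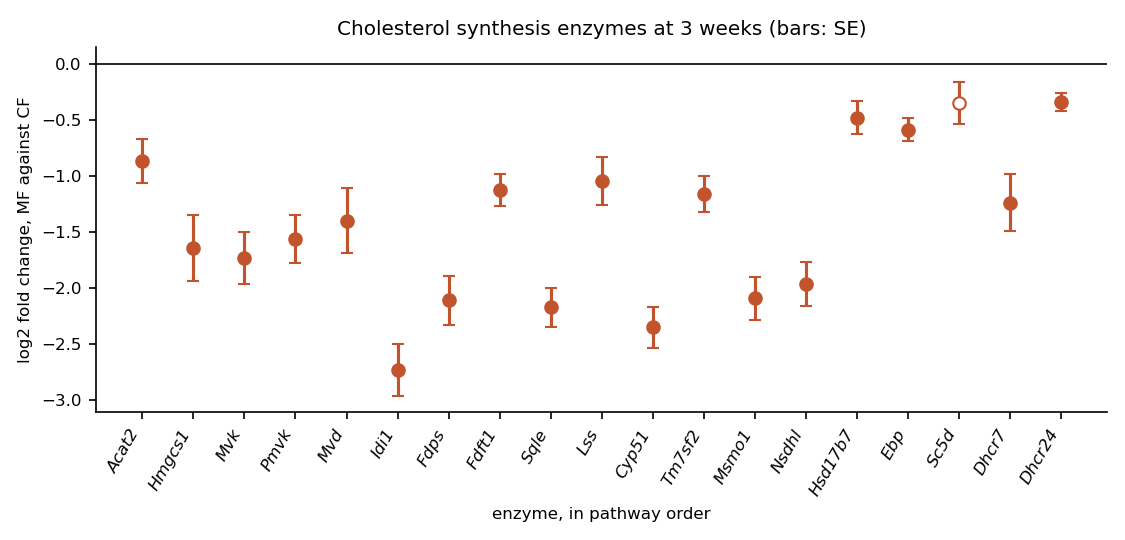
Log2 fold change of MF against CF (vertical axis) with its SE for 19 cholesterol synthesis enzymes in pathway order (horizontal axis), filled where the FDR was below 0.05. All 19 lie below 0, with *Idi1* lowest at -2.73, and the open point is *Sc5d*.

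The promoter windows of 3 enzymes that fell are shown because the sterol enzymes share a short motif that the choice of the list did not use. Capitals mark CCAAT, the box bound by the trimeric factor NF-Y, which acts together with SREBPs, or its reverse complement ATTGG. The box was found in the windows of 13 of the 15 cholesterol enzymes for which a window was kept (86.7%) and of 4337 of all 11231 genes with one (38.6%). The letters CACCCCAC, a core of the sterol response element, were found in 2 of the 15 windows (13.3%) and in 3.07% of all windows, on either strand. In *Idi1* the boxes began 45 and 14 bases before the start, in *Mvd* 60 and 27 bases, and in *Cyp51* 29 bases before it. *Mvd*, the decarboxylase of the mevalonate pathway, was chosen for this display after its value had been seen (log2 fold change -1.40 ± 0.29 SE, FDR 0.00657).
Idi1 (chr13:8885356-8885655, plus strand): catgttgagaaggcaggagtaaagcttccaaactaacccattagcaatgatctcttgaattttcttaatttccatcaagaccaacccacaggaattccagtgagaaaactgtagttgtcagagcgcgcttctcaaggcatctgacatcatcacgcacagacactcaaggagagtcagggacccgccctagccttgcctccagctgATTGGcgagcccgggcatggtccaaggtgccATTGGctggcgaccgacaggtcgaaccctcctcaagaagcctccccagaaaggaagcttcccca
Mvd (chr8:122443373-122443672, minus strand): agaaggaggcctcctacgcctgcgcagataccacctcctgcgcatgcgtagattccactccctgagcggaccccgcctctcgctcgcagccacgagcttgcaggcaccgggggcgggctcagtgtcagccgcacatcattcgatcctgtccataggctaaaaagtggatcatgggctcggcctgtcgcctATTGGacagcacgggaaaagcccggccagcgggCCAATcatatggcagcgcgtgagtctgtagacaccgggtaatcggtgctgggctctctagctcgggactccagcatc
Cyp51 (chr5:4104648-4104947, minus strand): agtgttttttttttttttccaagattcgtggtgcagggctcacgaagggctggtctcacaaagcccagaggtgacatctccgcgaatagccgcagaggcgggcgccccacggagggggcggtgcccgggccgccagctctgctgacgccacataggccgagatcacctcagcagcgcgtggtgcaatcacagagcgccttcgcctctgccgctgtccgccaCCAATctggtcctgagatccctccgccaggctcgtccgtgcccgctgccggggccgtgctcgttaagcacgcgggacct

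The effect of maternal obesity differed between the sexes for 2 of the 15097 genes (0.0132%), and *Sqle* was among them. *Sqle* went from 163 ± 39.8 (CM) to 12.1 ± 1.23 CPM (MM) in males and from 92.8 ± 15.1 (CF) to 20.6 ± 2.93 CPM (MF) in females. Its fall was smaller in females by 1.57 ± 0.23 SE on the log2 scale (FDR 0.0477, SD and n = 4 for the group values). At an unadjusted p below 0.05 the sexes differed for 1321 genes, and the likelihood ratio test called 18. *Sqle* lost its call in 14 of the 16 fits that left out 1 library, among them each that left out 1 of the 8 female libraries. These contrasts share no library between the sexes.

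Regulators of sterol balance were split. Of 19 genes of sterol sensing, uptake and efflux, 2 rose and 6 fell (10.5% higher and 31.6% lower, against 6.95% and 7.49% of all genes). *Srebf2*, which encodes SREBP2, was at 77.0, 84.9, 69.2 and 77.8 CPM in CF and 48.4, 51.1, 44.6 and 43.0 CPM in MF (log2 fold change -0.72 ± 0.13 SE, FDR 0.00295), with no overlap. *Insig1*, which holds SREBPs in the endoplasmic reticulum, fell as well (-0.75, FDR 0.0199). *Srebf1*, by contrast, was at 111, 113, 111 and 107 CPM in CF and 401, 309, 277 and 405 CPM in MF (log2 fold change 1.66 ± 0.25 SE, FDR 0.00116). The deposited counts do not separate the SREBP1a and SREBP1c forms of *Srebf1*.

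*Cyp7a1*, the rate-limiting enzyme of bile acid synthesis, was at 126, 92.4, 17.8 and 64.1 CPM in CF and 114, 166, 356 and 418 CPM in MF (log2 fold change 1.81 ± 0.54 SE, FDR 0.0381), and CF 3 lay above MF 3. It was the only rise among 17 bile acid genes, and 3 fell (5.88% higher and 17.6% lower, against 6.95% and 7.49% of all genes), including *Abcb11*, the bile salt export pump (-0.53, FDR 0.0303). *Cyp8b1*, which sets the share of cholic acid, was not called (-0.59, FDR 0.241). Of these genes, 0 rose and 1 fell without CF 5 and MF 4. The falls of bile acid genes numbered 0 or 1 instead of 3 without CF 3, CF 4, MF 3, MF 4 or MF 6. Calls lost in a fit without 1 library were *Insig1* (in 4 of 8 such fits, FDR up to 0.0667 without CF 3), *Cyp7a1* (in 5 of 8 such fits, FDR up to 0.0961 without MF 6) and *Abcb11* (in 5 of 8 such fits, FDR up to 0.0929 without CF 4).

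Fatty acid synthesis and desaturation moved opposite to sterol synthesis: of 18 tested genes, 8 rose and 2 fell, with a median log2 fold change of 0.77 (44.4% higher and 11.1% lower, against 6.95% and 7.49% of all genes). The list's summed level was 9175 to 12514 CPM in CF and 22954 to 26039.6 CPM in MF, without overlap. *Scd1*, the stearoyl-CoA desaturase that makes oleate, was at 7793, 7256, 7853 and 4640.4 CPM in CF and 15621, 17437, 16911 and 15662 CPM in MF (log2 fold change 1.25 ± 0.39 SE, FDR 0.0451). Each MF library was above each CF library for it. *Elovl6*, which elongates palmitate, was at 86.3, 104, 62.4 and 79.5 CPM in CF and 160.0, 348, 235 and 231 CPM in MF (log2 fold change 1.55 ± 0.43 SE, FDR 0.0289), and *Fads2*, the delta-6 desaturase of polyunsaturated fatty acids, at 527, 628, 534 and 685 CPM in CF and 2096, 1759, 1310.0 and 1573 CPM in MF (log2 fold change 1.51 ± 0.27 SE, FDR 0.00335). *Acaca*, acetyl-CoA carboxylase, rose as well (1.05, FDR 0.0118) but was not called without CF 5 and MF 4 (FDR 0.0646). *Fasn*, the fatty acid synthase, was at 446, 597, 408 and 382 CPM in CF and 1002, 1064, 818 and 814 CPM in MF and was not called (log2 fold change 1.01 ± 0.45 SE, FDR 0.137), although its groups did not overlap. In the 8 female libraries alone it was called by the exact test (FDR 5.52e-07) and the quasi-likelihood test (FDR 0.00664). There 13 and 12 genes of the list rose instead of 8.

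Other lipogenic genes rose by more on the log2 scale. *Pnpla3*, a lipid droplet hydrolase whose gene is an SREBP1c target, was at 0.906, 1.13, 0.811 and 0.497 CPM in CF and 21.0, 13.6, 4.96 and 8.65 CPM in MF (log2 fold change 3.84 ± 0.82 SE, FDR 0.0077). Its relative *Pnpla5* held 2, 2, 5 and 3 reads in CF and was at 4.07, 2.44, 1.10 and 1.34 CPM in MF (log2 fold change 4.80 ± 1.19 SE, FDR 0.0172), a fold that rests on the few CF reads. *Thrsp*, a lipogenic protein, was at 97.6, 85.2, 38.9 and 52.9 CPM in CF and 388, 649, 376 and 499 CPM in MF (log2 fold change 2.80 ± 0.55 SE, FDR 0.00477). None of the 3 overlapped between groups. *Acss2*, which activates acetate and is also a sterol-responsive gene, fell, from 380.4, 370.0, 239 and 240.0 CPM in CF to 122, 74.4, 77.1 and 81.2 CPM in MF (log2 fold change -1.79 ± 0.31 SE, FDR 0.00278).

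Lipid droplet genes rose without a fall among them. Of 25 tested genes of triacylglycerol synthesis and lipid droplets, 8 rose and 0 fell, with a median log2 fold change of 0.38 (32% higher and 0% lower, against 6.95% and 7.49% of all genes). *Cidec*, which fuses lipid droplets, was at 2.22, 0.175, 0.284 and 0.410 CPM in CF and 4.31, 8.19, 3.84 and 3.81 CPM in MF (log2 fold change 2.77 ± 0.66 SE, FDR 0.0142), with CF 3 above the other CF libraries (log2 fold change 4.13, FDR 0.0019 without CF 3). Without CF 5 and MF 4 it was not called (FDR 0.0699). *Fitm2*, which helps droplets bud from the endoplasmic reticulum, was at 48.2, 45.3, 42.1 and 54.4 CPM in CF and 77.3, 89.0, 80.1 and 89.9 CPM in MF (log2 fold change 0.82 ± 0.13 SE, FDR 0.00147). The droplet coat protein *Plin2* was at 308, 323, 423 and 363 CPM in CF and 458, 365, 354 and 354 CPM in MF and was not called (log2 fold change 0.11 ± 0.17 SE, FDR 0.68), nor was *Dgat2*, the last enzyme of triacylglycerol synthesis (0.22, FDR 0.213). For uptake, of 15 tested genes, 5 rose and 0 fell, with a median log2 fold change of 0.25 (33.3% higher and 0% lower, against 6.95% and 7.49% of all genes). *Cd36*, the fatty acid translocase, was at 39.3, 21.6, 23.3 and 43.2 CPM in CF and 150.4, 130.1, 136 and 201 CPM in MF (log2 fold change 2.28 ± 0.25 SE, FDR 0.000141), and the lowest MF library was above the highest CF library.

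In the fit without CF 5 and MF 4, 4 fatty acid synthesis genes, 3 lipid droplet genes and 4 uptake genes rose. The falls in fatty acid synthesis numbered 1 instead of 2 without CF 3, CF 4, MF 4, MF 5 or MF 6. The rises in lipid droplet genes numbered 5 instead of 8 without CF 3, CF 4, CF 5 or MF 6. With 1 library left out, FDR values of 0.05 or more were reached by *Scd1* (in each such fit, FDR up to 0.101 without CF 6), *Elovl6* (in 7 of 8 such fits, FDR up to 0.0732 without MF 4) and *Pnpla5* (without CF 3 or CF 4, FDR up to 0.0549).

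Genes of fatty acid oxidation rose together with those of synthesis. *Ppara*, which encodes the receptor PPARα, was at 132, 144, 136 and 199.8 CPM in CF and 282, 307, 278 and 283 CPM in MF (log2 fold change 0.91 ± 0.12 SE, FDR 0.000593). Among its targets and the enzymes of peroxisomal oxidation, of 27 tested genes, 15 rose and 0 fell, with a median log2 fold change of 0.56 (55.6% higher, against 6.95% of all genes). *Vnn1*, a pantetheinase, rose by 1.32 on the log2 scale (FDR 0.00122). *Fgf21*, a hormone that hepatocytes release under PPARα, was at 0.604, 0.551, 0.791 and 0.761 CPM in CF and 3.79, 3.98, 4.88 and 2.62 CPM in MF (log2 fold change 2.48 ± 0.62 SE, FDR 0.0172). None of these 3 genes overlapped between the groups. *Cyp4a14*, *Angptl4* and *Pdk4*, which are also PPARα targets, were not called (log2 fold changes 0.52, 0.29 and -0.31, FDR 0.177, 0.595 and 0.738).

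In mitochondria, of 19 tested genes, 7 rose and 0 fell, with a median log2 fold change of 0.26 (36.8% higher and 0% lower, against 6.95% and 7.49% of all genes). *Cpt1a*, the carnitine transferase that admits long-chain fatty acids, was at 532, 525, 523 and 659 CPM in CF and 932, 958, 897 and 860.4 CPM in MF (log2 fold change 0.70 ± 0.11 SE, FDR 0.00128). The trifunctional protein subunits *Hadha* and *Hadhb* (0.26 and 0.50) and the auxiliary enzymes *Eci2* and *Decr1* (both 0.47) rose by less. The straight-chain acyl-CoA dehydrogenases *Acadm*, *Acadl* and *Acadvl* were not called (log2 fold changes 0.16, 0.10 and 0.04). Of 6 ketogenic genes 2 rose (33.3%, against 6.95%), among them *Bdh1*, which makes hydroxybutyrate (log2 fold change 0.50). *Apoa4*, an apolipoprotein that responds to liver fat, was at 124, 119, 80.9 and 136 CPM in CF and 789, 2843, 1985 and 869.8 CPM in MF (log2 fold change 3.82 ± 0.36 SE, FDR 4.76e-05), and it was the only rise among 19 apolipoprotein and lipoprotein genes, of which 3 fell (5.26% higher and 15.8% lower, against 6.95% and 7.49% of all genes), among them *Apoc3* (-0.60, FDR 0.00985).

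Leaving out CF 5 and MF 4 together, 9 PPARα and peroxisomal genes, 6 mitochondrial oxidation genes and 0 ketogenic genes rose. The rises in peroxisomal and PPARα genes numbered 8 instead of 15 without CF 4. The rises in ketogenic genes numbered 0 or 1 instead of 2 without any 1 of the 8 libraries. The falls in apolipoprotein genes numbered 1 instead of 3 without CF 3, CF 4 or MF 6. Left uncalled by some fits without 1 library were *Fgf21* (without CF 3 or CF 4, FDR up to 0.0527), *Hadha* (in 7 of 8 such fits, FDR up to 0.0934 without CF 3) and *Bdh1* (in 5 of 8 such fits, FDR up to 0.0735 without CF 3).

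**Figure D5:**
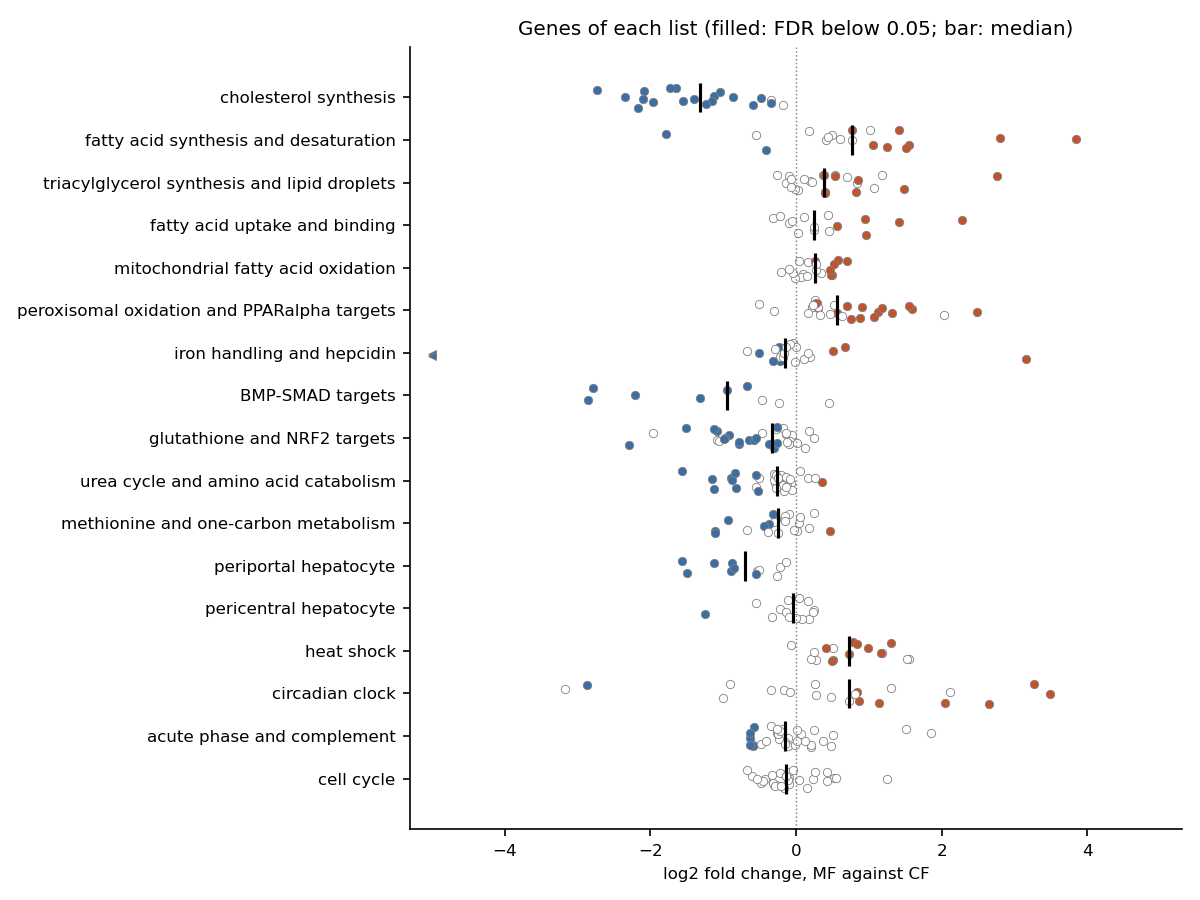
Log2 fold change of MF against CF (horizontal axis) of each tested gene in 17 lists (vertical position within a list carries no value), filled orange or blue where called higher or lower and open where not called, with the list median as a bar. The arrowhead at the left edge stands for *Hamp* and *Hamp2*, which lie beyond the axis at -11.61 and -9.71, and the median is farthest below 0 for cholesterol synthesis and farthest above 0 for fatty acid synthesis.

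Of 34 tested genes of the urea cycle and amino acid catabolism, 1 rose and 10 fell, with a median log2 fold change of -0.26 (2.94% higher and 29.4% lower, against 6.95% and 7.49% of all genes). *Hal*, which opens histidine breakdown, was at 906, 760.1, 677 and 618 CPM in CF and 211, 202, 244 and 338 CPM in MF (log2 fold change -1.57 ± 0.22 SE, FDR 0.000826). *Ass1*, which joins citrulline to aspartate in the urea cycle, was at 3789.8, 3251, 3039 and 2626 CPM in CF and 1529, 1761, 1556 and 2007 CPM in MF (log2 fold change -0.89 ± 0.14 SE, FDR 0.0013), and *Gls2*, the liver glutaminase, at 402, 339, 294 and 276 CPM in CF and 141, 146, 130.0 and 184 CPM in MF (log2 fold change -1.13 ± 0.17 SE, FDR 0.00126). Each MF library was below each CF library for all 3. *Got1* (-1.15), the cytosolic aspartate aminotransferase, and *Sds* (-0.88), serine dehydratase, fell too. *Cps1*, the first urea cycle enzyme, was not called (-0.51, FDR 0.0554) but was without MF 6 (FDR 0.0384), and *Otc* fell little (-0.28, FDR 0.041).

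In methionine and one-carbon metabolism, of 21 tested genes, 1 rose and 6 fell, with a median log2 fold change of -0.25 (4.76% higher and 28.6% lower, against 6.95% and 7.49% of all genes). *Gnmt*, which consumes excess methyl groups, was at 1421, 1091, 824 and 908 CPM in CF and 384, 472, 458 and 639 CPM in MF (log2 fold change -1.12 ± 0.21 SE, FDR 0.00439). *Cbs*, the entry to transsulfuration, was at 442, 411, 427 and 405 CPM in CF and 225, 142, 194 and 217 CPM in MF (log2 fold change -1.11 ± 0.20 SE, FDR 0.00341). Several of these genes are periportal, and of 12 periportal hepatocyte genes 7 fell (58.3%, against 7.49%) and 0 rose, with a median log2 fold change of -0.70. Of the 7, 5 were also in the amino acid list, among them *Ass1*, *Hal*, *Sds* and *Gls2*, and the others were *Pigr*, the receptor that carries IgA into bile, and *Sox9*, a factor of duct cells (-1.5 and -0.86). Of 14 pericentral genes, 1 fell (7.14%, against 7.49% of all genes), and 2 did without MF 6. The gene called with all libraries was the receptor *Lgr5*, at 11.5, 9.62, 13.0 and 14.6 CPM in CF and 5.52, 2.99, 5.95 and 6.09 CPM in MF (log2 fold change -1.25 ± 0.23 SE, FDR 0.00404). *Glul*, glutamine synthetase, and *Cyp2e1*, the other defining pericentral genes, were not called (log2 fold changes 0.17 and 0.04). The difference between the zones was not tested.

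With CF 5 and MF 4 both removed, 7 amino acid genes, 5 methionine and one-carbon genes and 7 periportal genes fell. The falls in amino acid genes numbered between 4 and 6 instead of 10 without CF 3, CF 4 or MF 5. Short of a call in some fits that left out 1 library were *Got1* (without CF 3 or MF 5, FDR up to 0.0604), *Sds* (without CF 3 or MF 5, FDR up to 0.0744) and *Otc* (in 7 of 8 such fits, FDR up to 0.139 without CF 3).

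Of 34 tested glutathione and NRF2 genes, 0 rose and 16 fell, with a median log2 fold change of -0.33 (47.1% lower, against 7.49% of all genes). *Gsta3*, a transferase of the alpha class, was at 1835, 1516, 1229.8 and 1459 CPM in CF and 923, 965, 872 and 1112 CPM in MF (log2 fold change -0.64 ± 0.12 SE, FDR 0.00441), and *Gstm1*, of the mu class, at 2408, 2313, 1361 and 1748 CPM in CF and 1115, 787, 659 and 1130.5 CPM in MF (log2 fold change -1.08 ± 0.28 SE, FDR 0.02). *Gsta2* fell most, at 39.5, 23.5, 17.4 and 22.4 CPM in CF and 3.50, 4.53, 3.14 and 9.90 CPM in MF (log2 fold change -2.29 ± 0.49 SE, FDR 0.00777). The groups did not overlap for these 3 transferases. *Gclc*, the rate-limiting enzyme of glutathione synthesis, fell by 0.55 on the log2 scale. *Nqo1*, a quinone reductase and classical NRF2 target, and *Gstp1* were not called (-1.07, FDR 0.0511, and -1.09, FDR 0.0548). *Nqo1* was called without CF 5 (FDR 0.0322) or MF 3 (FDR 0.0295). Single members of the Gsta, Gstm and Gstp families are uncertain, since reads shared between copies had been discarded.

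The letters TGACNNNGC, a core of the antioxidant response element, were found on either strand in 8 of the 30 windows of this list (26.7%) and in 14.5% of all windows. Among 42 genes of cytochrome P450 and xenobiotic metabolism, 4 rose and 4 fell (9.52% higher and 9.52% lower, against 6.95% and 7.49% of all genes), shares close to those of all genes. *Por*, the reductase that feeds electrons to all microsomal P450s, was at 339, 362, 217 and 294 CPM in CF and 473, 896, 611 and 799 CPM in MF (log2 fold change 1.2 ± 0.20 SE, FDR 0.00215). The abundant drug-metabolising forms *Cyp3a11*, *Cyp1a2* and *Cyp2b10* were not called, at log2 fold changes of -0.07, -0.10 and 0.03 (SE 0.16, 0.11 and 0.28). Among glutathione genes, 10 fell and 0 rose without CF 5 and MF 4. The falls in glutathione genes numbered between 6 and 10 instead of 16 without CF 3, CF 4, CF 6, MF 4 or MF 5. The falls in P450 genes numbered 1 or 2 instead of 4 without CF 3, CF 4 or MF 5. Removing 1 library ended the calls of *Gstm1* (in 4 of 8 such fits, FDR up to 0.063 without CF 3) and *Gclc* (in 5 of 8 such fits, FDR up to 0.073 without MF 5).

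Among secreted plasma proteins the fibrinogen chains fell. *Fga*, the fibrinogen alpha chain, was at 6529, 7262, 6973 and 7019.7 CPM in CF and 4606, 4158, 4698 and 4372 CPM in MF (log2 fold change -0.64 ± 0.10 SE, FDR 0.00133), and *Fgb* fell by 0.58 on the log2 scale. *C3*, the central complement protein, was at 13113, 14400.2, 14167 and 14471 CPM in CF and 8272, 7865, 10141 and 9982 CPM in MF (log2 fold change -0.63 ± 0.14 SE, FDR 0.00942). For these genes each MF library was below each CF library. Of 32 acute phase and complement genes, 6 fell (18.8%, against 7.49%) and 0 rose, and 3 fell without CF 5 and MF 4. *Saa1*, which rises most in an acute phase response, was at 11.0, 13.9, 15.9 and 9.74 CPM in CF and 8.65, 18.4, 105 and 11.9 CPM in MF (log2 fold change 1.5 ± 1.22 SE, FDR 0.421), high in MF 5 alone. *Tlr12*, an endosomal receptor for profilin, was at 7.32, 7.36, 8.70 and 6.55 CPM in CF and 19.0, 23.3, 23.3 and 19.4 CPM in MF (log2 fold change 1.5 ± 0.21 SE, FDR 0.000708), without overlap, and *Tlr5*, the flagellin receptor, rose by 0.87 on the log2 scale (FDR 0.0338). These were the only calls among 15 Toll-like receptor genes (13.3% higher, against 6.95%).

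Of 39 interferon genes 12 were called lower and 0 higher (0% higher and 30.8% lower, against 6.95% and 7.49% of all genes), and these calls did not hold in several other fits. *Gbp2*, an interferon-induced GTPase, was at 8.36, 11.8, 389 and 12.5 CPM in CF and 10.8, 10.0, 14.9 and 12.3 CPM in MF (FDR 0.042), and *Irf1*, a transcription factor of the response, at 36.3, 40.4, 245 and 37.7 CPM in CF and 32.1, 21.1, 33.1 and 28.9 CPM in MF (FDR 0.04). CF 5 was high for both, and the other 3 CF libraries overlapped or lay close to MF. Each of the 12 calls was lost without CF 5, without any 1 of the 4 MF libraries and in the quasi-likelihood fit of the 8 female libraries alone. The exact test on those 8 libraries called 5, and the robust fit 2. Without CF 5 the median log2 fold change went from -1.2 to -0.15. At an unadjusted p below 0.05, 29 of the 39 were lower with CF 5 included, against 4714 of all 15097 genes in either direction. DESeq2 called 6, and any gene to which it gave no FDR counts as not called. T and NK cell markers summed to 17.6 CPM in CF 5, and to 6.85, 9.09 and 7.52 CPM in the other CF libraries. In that list 2 of 9 tested genes fell (22.2%, against 7.49% of all genes), with *Gzma* (-1.27, FDR 0.0349) among them, and without CF 5 the count was 1 and *Gzma* was not called. Over all fits that left out 1 library the falls in this list numbered from 0 (without CF 4) to 3.

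The calls that some fits without 1 library did not give were *Tlr5* (in 5 of 8 such fits, FDR up to 0.0933 without MF 6), *Gbp2* (in 5 of 8 such fits, FDR up to 0.714 without CF 5), *Irf1* (in 5 of 8 such fits, FDR up to 0.111 without CF 5) and *Gzma* (in 4 of 8 such fits, FDR up to 0.119 without CF 5). The rises in Toll-like receptors numbered 1 instead of 2 without CF 3, CF 4, CF 5, MF 5 or MF 6.

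Of 21 circadian clock genes, 7 rose and 1 fell (33.3% higher and 4.76% lower, against 6.95% and 7.49% of all genes), with a median log2 fold change of 0.73. *Per2*, a repressor arm of the clock, was at 7.52, 10.0, 6.61 and 10.7 CPM in CF and 38.3, 58.3, 53.5 and 68.2 CPM in MF (log2 fold change 2.65 ± 0.37 SE, FDR 0.000893). *Arntl*, the activator that drives it, was at 26.4, 17.0, 26.6 and 20.7 CPM in CF and 5.10, 3.35, 1.78 and 2.10 CPM in MF (log2 fold change -2.87 ± 0.68 SE, FDR 0.014), and this fall was not called without CF 5 and MF 4 (FDR 0.0522). *Usp2*, a rhythmic ubiquitin protease, was at 4.00, 5.31, 2.98 and 4.27 CPM in CF and 22.4, 68.9, 45.5 and 48.6 CPM in MF (log2 fold change 3.49 ± 0.57 SE, FDR 0.00203). The groups did not overlap for these genes. *Per3* and *Noct* rose as well (2.04 and 3.26), while *Dbp*, a rhythmic output factor, and *Nr1d1*, a repressor of *Arntl*, were not called (1.31, FDR 0.286, and -0.91, FDR 0.134). *Nr1d1* was called without MF 3 (log2 fold change -1.37, FDR 0.0314). *Per1* was high in MF 4 alone, at 13.5, 50.7, 18.1 and 13.1 CPM in MF (log2 fold change 0.73 ± 0.38 SE, FDR 0.203). The E-box letters CACGTG were found in 5 of 18 clock promoter windows (27.8%) (1 of 6 among called clock genes, 16.7%) and in 9.94% of all windows, and the D-box letters TTATGTAA in 1 of 18 and in 0.605%, on either strand. These transcripts cycle over the day, and the sources used here give no hour of collection for each mouse, so that hour and diet cannot be told apart.

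Tsukushi, encoded by *Tsku* and secreted by the liver, was at 7.62, 6.04, 4.97 and 13.0 CPM in CF and 46.7, 119, 87.5 and 168 CPM in MF (log2 fold change 3.74 ± 0.59 SE, FDR 0.00159). In glucose metabolism and insulin signalling, of 23 tested genes, 6 rose and 1 fell, with a median log2 fold change of 0.26 (26.1% higher and 4.35% lower, against 6.95% and 7.49% of all genes). *Irs2*, an insulin receptor substrate that insulin represses, was at 40.1, 53.5, 40.6 and 30.4 CPM in CF and 18.8, 22.5, 19.0 and 16.9 CPM in MF (log2 fold change -1.09 ± 0.30 SE, FDR 0.0265). *Pck1*, the gluconeogenic carboxykinase, was at 2255, 2003, 2717 and 1804 CPM in CF and 891, 3330.5, 941 and 899 CPM in MF (log2 fold change -0.53 ± 0.45 SE, FDR 0.434). It was low in 3 MF libraries and highest of all in MF 4, and it was called lower when that library was left out (log2 fold change -1.27, FDR 0.0383 without MF 4). *G6pc* and *Pklr* were not called (log2 fold changes -0.05 and 0.27). Without CF 5 and MF 4, 4 clock genes and 1 glucose gene rose. The exact test, run on the 8 female libraries alone, called 11 clock genes higher and 3 lower. The rises in clock genes numbered 4 instead of 7 without CF 5, CF 6, MF 4 or MF 6. The rises in glucose genes numbered 2 or 3 instead of 6 without CF 3, CF 5, MF 4 or MF 5. Refitting without 1 library ended the call of *Per3* (in 6 of 8 such fits, FDR up to 0.0795 without CF 3) and *Irs2* (in 5 of 8 such fits, FDR up to 0.0854 without CF 4).

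Cytosolic chaperones rose in MF. Of 17 heat shock genes, 9 rose and 0 fell (52.9% higher, against 6.95% of all genes), with a median log2 fold change of 0.73. *Hsph1*, a nucleotide exchange factor of HSP70, was at 17.0, 20.7, 39.5 and 37.4 CPM in CF and 42.3, 79.7, 80.0 and 80.5 CPM in MF (log2 fold change 1.30 ± 0.32 SE, FDR 0.0157), and MF 3 was low among the MF libraries. *Hsp90aa1*, the inducible HSP90, was at 77.9, 85.8, 121 and 125 CPM in CF and 157, 262, 246 and 258 CPM in MF (log2 fold change 1.17 ± 0.27 SE, FDR 0.0114), and *Hspa8*, the constitutive HSP70, rose by 0.73 on the log2 scale. *Hspa1b*, the inducible HSP70, was at 2.38, 2.56, 8.62 and 3.6 CPM in CF and 7.86, 9.61, 11.9 and 9.85 CPM in MF and was not called (log2 fold change 1.18 ± 0.41 SE, FDR 0.0644), with CF 5 above MF 3, but was called when CF 5 was left out (log2 fold change 1.78, FDR 0.00928 without CF 5), alone or with MF 4. In the endoplasmic reticulum, 1 of 20 chaperone genes rose and 0 fell (5% higher and 0% lower, against 6.95% and 7.49% of all genes), with *Hspa5* not called (0.33, FDR 0.402). The rises among these 20 numbered 3 without MF 3 and 0 without CF 3, CF 5 or MF 4. Without CF 5 and MF 4, 9 heat shock genes rose.

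Windows of 3 chaperone genes that rose are shown because this list shared a motif. Capitals mark GAANNTTC, a core of the heat shock element that reads the same on both strands. It occurred in 9 of the 13 windows of the list (69.2%) and in 640 of all 11231 windows (5.7%). *Dnaja1* and *Bag3*, co-chaperones of HSP70, were chosen for the display after their values had been seen (0.78, FDR 0.00167, and 0.51, FDR 0.0181).
Hsph1 (chr5:149636287-149636586, minus strand): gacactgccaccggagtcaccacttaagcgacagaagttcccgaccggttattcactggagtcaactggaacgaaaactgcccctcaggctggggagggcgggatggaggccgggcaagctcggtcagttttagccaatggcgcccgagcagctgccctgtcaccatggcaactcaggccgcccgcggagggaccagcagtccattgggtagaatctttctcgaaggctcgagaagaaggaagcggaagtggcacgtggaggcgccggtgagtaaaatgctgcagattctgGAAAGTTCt
Dnaja1 (chr4:40722218-40722517, plus strand): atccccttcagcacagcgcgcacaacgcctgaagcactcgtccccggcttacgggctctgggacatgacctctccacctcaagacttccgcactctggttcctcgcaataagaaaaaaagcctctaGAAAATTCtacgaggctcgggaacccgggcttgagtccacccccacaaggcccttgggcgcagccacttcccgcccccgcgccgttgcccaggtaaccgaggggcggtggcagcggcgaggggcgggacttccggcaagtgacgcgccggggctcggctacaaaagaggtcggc
Bag3 (chr7:128523333-128523632, plus strand): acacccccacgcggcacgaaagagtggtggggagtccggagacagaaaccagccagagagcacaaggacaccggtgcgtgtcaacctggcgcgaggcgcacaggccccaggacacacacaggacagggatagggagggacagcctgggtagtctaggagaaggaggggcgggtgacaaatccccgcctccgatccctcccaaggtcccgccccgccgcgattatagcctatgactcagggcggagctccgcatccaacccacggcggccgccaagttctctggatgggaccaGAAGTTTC

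Ribosomal protein genes fell by small amounts in many members. Of 84 tested genes, 0 rose and 57 fell, with a median log2 fold change of -0.34 (67.9% lower, against 7.49% of all genes). The list summed to 10052 to 12038 CPM in CF and 8004 to 9545 CPM in MF, without overlap. Among the called members *Rpl39* fell most, at 52.1, 55.3, 46.3 and 41.7 CPM in CF and 39.5, 33.9, 27.7 and 30.2 CPM in MF (log2 fold change -0.57 ± 0.14 SE, FDR 0.0155). The falls numbered 35 without CF 5 and MF 4 and 19 with total count scaling, which left the median at -0.28. The falls in ribosomal protein genes numbered between 9 and 15 instead of 57 without CF 3, CF 4, MF 5 or MF 6. In the 8 female libraries alone, the exact test called 35 of them lower and the quasi-likelihood test 24. Of 34 translation factors, 4 rose (11.8%, against 6.95%), with the cap-binding protein *Eif4e* at 32.8, 34.0, 32.5 and 38.1 CPM in CF and 41.7, 45, 50.0 and 54.7 CPM in MF (log2 fold change 0.48 ± 0.12 SE, FDR 0.0151), and 1 fell, *Eef1b2* (-0.28, FDR 0.0426). Of 77 mitochondrial ribosomal protein genes 1 rose and 0 fell (1.3% higher and 0% lower, against 6.95% and 7.49% of all genes). Of 73 respiratory chain genes 0 rose and 2 fell (0% higher and 2.74% lower, against 6.95% and 7.49% of all genes), and 0 fell without CF 3, CF 4, MF 5 or MF 6.

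*Atf4*, the factor that answers amino acid shortage, was at 89.3, 83.6, 75.3 and 75.6 CPM in CF and 54.5, 52.3, 49.2 and 52.9 CPM in MF (log2 fold change -0.63 ± 0.14 SE, FDR 0.0083), and its target *Trib3* fell by 1.33 on the log2 scale. They were among 4 falls and 0 rises in 19 genes of that response (21.1% lower, against 7.49%), and *Asns*, asparagine synthetase, was not called (-0.27, FDR 0.603). The rises in translation factors numbered 2 instead of 4 without CF 3, CF 4, MF 5 or MF 6. Calls lost in a fit without 1 library were *Hsph1* (without CF 4, FDR 0.0511), *Hspa8* (without CF 3, FDR 0.0537), *Bag3* (without CF 3, CF 4 or MF 5, FDR up to 0.0559), *Rpl39* (without CF 3 or CF 4, FDR up to 0.0566) and *Eef1b2* (in 6 of 8 such fits, FDR up to 0.155 without CF 4).

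Of 17 genes of the growth hormone and IGF axis, 1 fell (5.88%, against 7.49% of all genes), *Stat5b*, the signal transducer of growth hormone (-0.50, FDR 0.0451). *Igf1* was at 662, 682, 606 and 738 CPM in CF and 841, 454, 573 and 918 CPM in MF (log2 fold change 0.05 ± 0.19 SE, FDR 0.879), with overlapping groups. Of 31 cell cycle genes 0 were called by edgeR's quasi-likelihood test (against 6.95% of all genes higher and 7.49% lower). In that test 1 of the 31 had an unadjusted p below 0.05, against 4714 of all 15097 genes. DESeq2 called 1 of the 31, against 2884 of all genes. *Mki67* was at 29.3, 32.3, 40.0 and 51.9 CPM in CF and 73.5, 13.6, 25.6 and 13.1 CPM in MF, high in MF 3. In the list of fetal liver genes, 2 of 12 rose (16.7%, against 6.95%), *Gpc3*, a cell surface proteoglycan (1.02, FDR 0.0159), and *Spink1*, a trypsin inhibitor, at 0.302, 0.526, 0.264 and 0.351 CPM in CF and 1.64, 10.1, 8.29 and 0.929 CPM in MF (log2 fold change 3.85 ± 0.69 SE, FDR 0.00314). *Afp*, alpha-fetoprotein, was not called (0.06, FDR 0.912).

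Among genes that the study had picked as examples, *Bbc3*, the apoptosis inducer PUMA, was at 5.57, 5.21, 5.94 and 4.39 CPM in CF and 3.22, 1.53, 1.44 and 3.01 CPM in MF (log2 fold change -1.2 ± 0.26 SE, FDR 0.00919). *Irf2bp2*, a co-repressor, and *Alcam*, an adhesion molecule, also fell (-1.28 and -0.22), and *Ank1*, ankyrin of red cell membranes, rose (2.68, FDR 0.0271, and log2 fold change 3.35, FDR 0.0221 without CF 5). These examples had been chosen on data that include these libraries, so they are not independent evidence of a direction. Of 16 immediate early genes 3 fell (18.8%, against 7.49%), with *Junb* at 20.7, 17.1, 13.2 and 16.9 CPM in CF and 7.51, 9.34, 6.29 and 3.79 CPM in MF (log2 fold change -1.33 ± 0.32 SE, FDR 0.0135), and *Egr1* was not called (-1.34, FDR 0.143) but was when MF 4 was left out (log2 fold change -2.19, FDR 0.0304 without MF 4), alone or with CF 5. Of 13 hypoxia targets 3 rose and 1 fell (23.1% higher and 7.69% lower, against 6.95% and 7.49% of all genes), and the fall was *Ndrg1*, at 36.7, 37.3, 38.6 and 47.4 CPM in CF and 15.6, 13.5, 10.0 and 7.16 CPM in MF (log2 fold change -1.79 ± 0.44 SE, FDR 0.0163). The rises in fetal liver genes numbered 1 instead of 2 without CF 4. The falls in immediate early genes numbered 5 instead of 3 without MF 4. The rises in hypoxia targets numbered 1 instead of 3 without CF 3, MF 4 or MF 6. With 1 library left out, FDR values of 0.05 or more were reached by *Stat5b* (in 7 of 8 such fits, FDR up to 0.107 without MF 6), *Gpc3* (without CF 4, FDR 0.0511), *Irf2bp2* (in 6 of 8 such fits, FDR up to 0.0933 without CF 3), *Alcam* (in each such fit, FDR up to 0.125 without CF 4), *Ank1* (in 5 of 8 such fits, FDR up to 0.079 without CF 4) and *Ndrg1* (without MF 6, FDR 0.0502).

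Markers of other liver cell types were read the same way. Of 13 sinusoidal endothelium markers 3 rose (23.1%, against 6.95% of all genes), with *Lyve1*, a hyaluronan receptor, at 12.7, 9.97, 8.07 and 11.7 CPM in CF and 33.0, 30.8, 27.2 and 22.8 CPM in MF (log2 fold change 1.43 ± 0.20 SE, FDR 0.00093) and no overlap. Of 13 Kupffer cell and macrophage markers 1 fell (7.69%, against 7.49%), the haemoglobin scavenger receptor *Cd163* (-0.89, FDR 0.0445), while *Clec4f*, which defines Kupffer cells, was not called (-0.05, FDR 0.71). Of 8 measured bile duct markers 3 fell (37.5%, against 7.49%), *Epcam* and *Sox9* among them, and the list summed to 65.2 to 103 CPM in CF and 47.7 to 58.8 CPM in MF. Of 10 red cell precursor markers 2 rose (20%, against 6.95%), among them *Alas2*, the first enzyme of red cell haem synthesis (0.95, FDR 0.0437), and the list summed to 246 to 439 CPM in CF and 413 to 782 CPM in MF, with overlap. The part of red cell and duct markers in the iron and periportal results was not tested. Stellate cell markers gave 1 fall in 12 (8.33%, against 7.49%), with 0 falls when any 1 library other than MF 3 was left out, and B cell, neutrophil and muscle markers gave no call in 9, 6 and 1 measured genes (against 6.95% of all genes higher and 7.49% lower). Of 8 adipocyte and 15 pancreas markers, 3 and 2 could be tested, too few to set their 1 rise and 1 fall against the shares of all genes. The rises in endothelium markers numbered 1 instead of 3 without CF 3. The falls in duct markers numbered 1 instead of 3 without CF 3, CF 4, MF 3, MF 4 or MF 6. The rises in red cell markers numbered 0 or 1 instead of 2 without CF 3, CF 4, CF 6, MF 3, MF 4, MF 5 or MF 6. With the 8 female libraries alone, 7 red cell markers rose. Left uncalled by some fits without 1 library were *Cd163* (in 7 of 8 such fits, FDR up to 0.121 without CF 6), *Epcam* (in 7 of 8 such fits, FDR up to 0.172 without CF 4) and *Alas2* (in 7 of 8 such fits, FDR up to 0.122 without MF 5).

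Outside the lists, the rule for large changes named further genes. *Ttll8*, a tubulin-modifying enzyme, held 3, 0, 0 and 2 reads in CF and 0.438, 2.80, 1.68 and 1.22 CPM in MF, at least 18.9-fold higher against a floor of 3 reads per library. The predicted gene *Gm44662* was at 4.57, 3.06, 2.43 and 1.17 CPM in CF and held at most 2 reads in each MF library, at least 40.8-fold lower by the same floor. *Hapln1*, a link protein of hyaluronan, was at 0.201, 0.200, 0.122 and 0.176 CPM in CF and 1.25, 4.55, 4.47 and 2.66 CPM in MF (log2 fold change 4.20 ± 0.79 SE, FDR 0.00404). *Bmp8b*, a BMP ligand, and *Gldn*, gliomedin, rose by 3.62 and 3.98 on the log2 scale from CF means of 0.11 and 0.0919 CPM. *Gldn* fell under the read minimum, and was not tested, without MF 3, MF 4 or MF 5, and without CF 5 and MF 4 together. The urinary proteins *Mup15* and *Mup17* rose by 3.85 and 3.64, with the split of reads among near-identical Mup copies uncertain. *Celf4*, an RNA-binding protein of neurons, was at 0.201, 0.451, 0.487 and 0.176 CPM in CF and 0.635, 16.9, 0.494 and 0.489 CPM in MF and was called (FDR 0.0451) through MF 4, and it was not called without that library (log2 fold change 0.68, FDR 0.607).

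Large falls outside the lists were those of *Cyp2g1*, an olfactory-type P450 (-2.70, FDR 0.00213, and -3.32 without MF 3), *Tnfaip8l3*, a lipid transfer protein (-2.44, FDR 0.00322), *Vtcn1*, an immune checkpoint ligand (-2.70, FDR 0.00668, and -2.04 without CF 4), and the predicted genes *Gm4673* and *Gm36264* (-3.16 and -2.76). Short of a call in some fits that left out 1 library were *Mup15* (without CF 3 or CF 4, FDR up to 0.0554), *Mup17* (without CF 4, FDR 0.0565) and *Celf4* (in 5 of 8 such fits, FDR up to 0.607 without MF 4).

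Besides *Cidec*, *Arntl* and *Acaca*, the calls described above that the fit without CF 5 and MF 4 did not give were those of *Smad6*, *Tfr2*, *Cyp7a1*, *Abcb11*, *Scd1*, *Elovl6*, *Pnpla5*, *Fgf21*, *Hadha*, *Bdh1*, *Got1*, *Otc*, *Gclc*, *C3*, *Tlr5*, *Gbp2*, *Irf1*, *Gzma*, *Per3*, *Irs2*, *Eef1b2*, *Stat5b*, *Gpc3*, *Bbc3*, *Alcam*, *Cd163*, *Epcam*, *Mup15*, *Mup17* and *Celf4* (FDR 0.05 to 0.597).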

How the data were processed

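Liver mRNA (KAPA mRNA HyperPrep kit, NovaSeq, paired reads) was measured in 16 libraries at 3 weeks. The authors aligned reads to mm10 with STAR, dropped reads of low quality or with several matches, and obtained raw counts per gene with featureCounts. The authors state a filter of 15 reads in 4 or more samples, which 45 of the 15142 genes in the deposited table did not meet. Those 45 were not tested. The table also gives log2 CPM on TMM-scaled library sizes, made by the authors with edgeR, and gene lengths. Tool names and build are in the submitters' processing notes, without versions. Whether counting used strand is not given in the sources used here, so overlapping genes and near-identical copies are uncertain. Columns of the authors' own comparisons (signed and log2 fold changes, p-values and FDR) were not used, and the table of 8-week libraries was not used here.

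Counts were fitted with the quasi-likelihood test of edgeR 4.0.16 (limma 3.58.1, R 4.3.3) after TMM scaling, with 1 mean per group over the 16 libraries and Benjamini-Hochberg FDR over 15097 genes (15 reads in 4 libraries). The female less the male effect was tested in the same fit. DESeq2 1.42.0, other tests, scalings and filters, a replicate block and fits without single libraries were alternatives. The exact test and, for MF against CF, the replicate block were run on the 8 female libraries alone. Recomputed log2 CPM differed from the deposited values by at most 5e-09, and no libraries were identical.

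Named genes were the 12 largest rises and 12 largest falls among called genes without overlap and with at least 1 CPM in the higher group, preset anchors of the gene lists, the called member with the largest rise and fall in each list, genes of the sex difference, and the 8 genes each that set CF 5 and MF 4 apart. For the 12 largest rises and 12 largest falls, lack of overlap was a condition of being named and adds no evidence. Other list members were named after their values had been seen (*Mvd*, *Mvk*, *Fdps*, *Msmo1*, *Sc5d*, *Id3*, *Noct*, *Per3*, *Thrsp*, *Pigr*, *Got1*, *Hsp90aa1*, *Hspa8*, *Dnaja1*, *Bag3*, *Slc11a2*, *Slc39a14*, *Vnn1*, *Acadm*, *Acadl*, *Acadvl*, *Clec4f*, *Epcam* and *Alas2*). The comparison, gene lists and tests were chosen with earlier results of these data known. Promoter windows came from the RefSeq table for GRCm38.p6. Windows on 1 chromosome and windows short of full length were left out, and 11231 of the 15097 tested genes kept a window. Where a gene had several windows, the one with its start nearest the 5′ end of the counted gene was used. Some genes that the rule names are not reported here.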

Additional observations from a re-analysis of the deposited data

Results flagged for a closer look

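In each group of 4 libraries, the CPM of 181 genes chosen by the naming rule was examined for 1 library far from the other 3 by the ratio of its gap to the range (Dixon's test). This set apart 1 library in 49 of 362 groups (13.5%), where chance gives about 1 in 20, and the rule had picked the genes in which CF 5 or MF 4 stood highest. CF 5 was high for 15 genes, in CPM *Gm4841* at 107, *Tgtp1* at 853, *Gm12250* at 213, *Gbp10* at 399, *Gbp6* at 183, *Gbp2* at 389, *Cd274* at 109, *Tgtp2* at 110.4, *Irf1* at 245, *Gzma* at 3.47, *Irf7* at 94.8, *Atf3* at 3.77, *Rims1* at 1.14, *Ank1* at 0.568 and *Gap43* at 0.568. CF 5 was low for *Ank3* at 26.0, *Slc40a1* at 166 and *Cyp2e1* at 6362. MF 4 was high for 14 genes, *Pck1* at 3330.5, *Fos* at 2.73, *Angptl4* at 68.7, *Per1* at 50.7, *Ppara* at 307, *Prrt1* at 3.19, *Nfasc* at 9.89, *Rims1* at 7.98, *Cidec* at 8.19, *Cend1* at 6.23, *Gpr37l1* at 5.08, *Gap43* at 7.31, *Celf4* at 16.9 and *Iqsec3* at 5.29. MF 4 was low for *Gm44662* at 0 and *Cd274* at 1.87. The other libraries gave fewer such values. CF 6 was high for *Hadha* at 469, *Egln3* at 29.1, *Cpt1a* at 659 and *Gpc3* at 22.5. MF 3 was high for *Acss2* at 122, *Top2a* at 31.3, *Plin2* at 458 and *Fabp1* at 3673, and low for *G6pc* at 169 and *Hsph1* at 42.3. The remaining values were high *Cidec* at 2.22 in CF 3, *Vtcn1* at 3.31 in CF 4, *Saa1* at 105 in MF 5 and *Nr1i3* at 354 in MF 6, and a low *Cyp4a14* at 782 in CF 4.

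The effect of maternal obesity differed between females and males for *Sqle* (female less male log2 effect 1.57), by the interaction term of edgeR's quasi-likelihood test with FDR 0.0477.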

How the results depend on the processing

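The number of called genes stayed within 1.5 times of 2180 under the likelihood ratio test (2302), DESeq2 (2884), RLE scaling (2157), total count scaling (1982) and both other filters (2177 and 2214). With the 8 female libraries alone it stayed so under the exact test (2027) and the quasi-likelihood test (1964). It was 1137 without CF 5 and MF 4, with 519 genes higher and 618 lower. Leaving out 1 library gave 1088 to 1977 called genes, 557 to 1018 higher and 531 to 1005 lower. Total count scaling lowered the number of falls to 696. Same-numbered CF and MF libraries did not all deviate together (r of 0.0212, -0.111, -0.229 and 0.208 for numbers 3 to 6), so the numbers were not taken as pairs. A replicate block by number gave 1602 called genes, of which 1329 were among the 2180, with 723 lower.

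For the difference between the sexes, the likelihood ratio test called 18 genes, total count scaling 1, the replicate block nested in sex 0 (1283 at an unadjusted p below 0.05), and fits without 1 library 0 to 3. Without CF 5 and MF 4, the interferon genes *Gm4841* (0.88), *Tgtp1* (0.054), *Gm12250* (0.0169) and *Gbp2* (0.21) turned from negative to positive log2 fold changes. Leaving out 1 library gave -6.23 (without CF 4) to 0.73 (without CF 5) for *Gm4841* and -3.5 (without CF 3) to 0.14 (without CF 5) for *Gbp2*. No cause of these changes was tested. Among 5126 values of single genes and lists under alternatives, 4601 were counted as unchanged and 6 as reversed. Another 433 fell short of the threshold, 57 newly passed it and 29 list medians moved. The unchanged values include uncalled genes whose log2 fold change switched sign, such as *Ghr* (6 sign changes) and *Igfals* (4). Direction was therefore not kept in all of the 4601. At these depths 0.1 CPM is only a few reads per library, which limits genes near that level.

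Among lists with 2 or more calls in one direction, these counts moved by more than 1.5 times under another test, scaling or filter, the block or the 8 female libraries alone. The exact test on the 8 female libraries gave 13 rises in fatty acid synthesis (from 8), 11 in clock genes (from 7) and 7 in red cell markers (from 2). It also gave 35 ribosomal protein falls (from 57), 5 interferon falls (from 12), 1 respiratory chain fall (from 2) and 0 falls in T and NK cell markers (from 2). The quasi-likelihood test on the same 8 libraries gave 7 red cell rises, and falls of 24 ribosomal protein, 2 iron (from 6), 1 respiratory chain, 0 interferon and 0 T and NK cell genes. Total count scaling gave falls of 19 ribosomal protein, 7 interferon, 3 iron, 1 duct (from 3), 1 fatty acid synthesis (from 2) and 0 respiratory chain genes. DESeq2 gave 4 rises each in red cell and fetal liver genes (from 2 each), and falls of 6 apolipoprotein (from 3), 6 interferon and 4 hepatocyte marker genes (from 2). The likelihood ratio test gave 19 interferon falls and 4 rises each in red cell and fetal liver genes, the robust fit 2 interferon falls and 0 red cell rises, and the filter of 1 CPM 1 fall in T and NK cell markers. The replicate block gave rises of 13 fatty acid synthesis, 8 red cell, 1 ketogenic (from 2) and 1 fetal liver gene, and falls of 5 amino acid (from 10), 4 periportal (from 7), 3 iron, 1 apolipoprotein, 0 duct, 0 interferon and 0 T and NK cell genes. *Fasn* was called under the block (FDR 0.00808). Named genes that missed a call in the fit of all 16 libraries but passed under at least one other test, scaling, filter or the block were *Fasn*, *Cps1*, *Cyp4a14*, *Dbp*, *Gstp1*, *Hspa1b* and *Nqo1*.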

Other observations

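The 19 measured brain markers had a median log2 fold change of 3.33, and none was called by edgeR's quasi-likelihood test. At an unadjusted p below 0.05, 9 of them were higher in MF, against 4714 of all 15097 genes in either direction. DESeq2 called 8 of them, against 2884 of all genes, and the median of the markers was -0.06 without MF 4. The 77 mitochondrial ribosomal protein genes had a median of -0.02 and the 73 respiratory chain genes a median of -0.09 on the log2 scale. After a trend over gene length had been subtracted, the median of the cytosolic ribosomal protein genes was -0.25 instead of -0.34, and that of the cholesterol synthesis genes -1.28 instead of -1.32.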
